A study of Ovis aries with 12 samples.

Results

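Expression of 7 leukocyte and inflammation genes was read in the biceps femoris, a hind-limb skeletal muscle, of sheep fetuses near term. The genes were FCER1G, ITGB2, FLAP (symbol ALOX5AP), TLR2, CXCL8 (carried on the array under its older name IL8), CD40 and CHI3L1. They are 7 of the 1037 genes that the array carries by name, and were found by gene symbol or sheep RefSeq accession among the array's probes, the short DNA strands to which the labelled RNA binds. CHI3L1 had 1 probe and each of the others had 2, which gave 13 of the 15008 probes of the array. Of these 13, 10 were well above local background on at least 6 of 12 arrays and entered the fit across all 10734 probes that met that rule. A probe printed in several spots counted on an array if any of its spots was well above background. The remaining 3, the second probes of TLR2, CXCL8 and CD40, are given as values only.

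The study compared fetuses of ewes infused with vehicle (control) with fetuses of ewes infused with cortisol at 1 mg/kg/day, and asked what about 25 days of maternal cortisol excess does to the fetal muscle. In both arms the pregnancies were singletons, the infusion began near day 115 of gestation, and tissue was taken at 139 to 144 days, soon after labour began. The labels give 7 ewes per arm, and 6 arrays per arm were analysed here, numbered 1 to 6 within each group. The title, source and tissue labels name the biceps femoris, whereas the treatment text of the same labels speaks of the heart's left ventricular wall. The muscle regulator MYOD1 was well above background on all 12 arrays, and no heart marker on the list used here is on the array by name. Nothing in the labels says more about the source of a replicate, so the spread between arrays may hold technical as well as biological variation.

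These genes act at successive steps of an inflammatory response. FCER1G is the signalling chain shared by several Fc receptors and ITGB2 is the beta chain of the leukocyte integrins, and both are found mainly in myeloid and other white blood cells. FLAP hands arachidonic acid to 5-lipoxygenase for leukotriene synthesis, TLR2 senses bacterial lipoproteins, and CD40 is the receptor through which T cells activate antigen-presenting cells. CXCL8 is a neutrophil-attracting chemokine, and CHI3L1 is a secreted chitinase-like protein made by macrophages, neutrophils and some mesenchymal cells. Muscle fibres themselves are not known as a main source of most of these transcripts. In whole tissue, a change in the number of cells of a type and a change in the RNA per cell cannot be told apart.

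The probes decide what each value stands for, so those of the surface receptors and of CHI3L1 are shown as they are given in the scanner files, 60 bases each, 5′ to 3′. They are in lower case, and capitals mark the 14 bases that this ITGB2 probe shares with the gene's other probe.
ITGB2 probe 2: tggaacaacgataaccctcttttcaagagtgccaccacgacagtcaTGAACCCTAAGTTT
TLR2 probe 1: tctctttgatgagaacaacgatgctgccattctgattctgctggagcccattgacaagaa
TLR2 probe 2: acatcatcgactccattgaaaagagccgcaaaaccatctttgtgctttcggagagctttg
CD40 probe 1: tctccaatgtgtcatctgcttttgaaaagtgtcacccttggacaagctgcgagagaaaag
CD40 probe 2: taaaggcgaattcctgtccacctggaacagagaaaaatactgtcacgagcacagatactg
CHI3L1: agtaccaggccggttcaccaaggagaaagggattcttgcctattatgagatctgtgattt

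Each of these 6 probes has at least 1 forward reading frame without a stop codon. The paired probes differ in how far they are separate readings of a transcript. The FCER1G probes share 59 of 60 bases and start 1 base apart, so they are nearly the same probe printed at different places on the array. The FLAP probes share 40 bases, the CXCL8 probes 20 and the ITGB2 probes 14. The CD40 probes share no end sequence and start 263 bases apart on their target, and the TLR2 probes start 106 bases apart. The hexamer AATAAA, the usual signal for polyadenylation, was searched on the strand as written and is present in 3 of the 13 probes, both of FCER1G and probe 2 of FLAP. It is present in 5.6% of all 15008 probes.

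Signals are given in log2 units against the 75th percentile of the same array, so a value of -2 lies far below that percentile and a difference of 1 is a doubling. The 75th percentile lay between 187.3 and 446.8 intensity units, and an array had 66.4% to 76.0% of its probes well above background. Over the tested probes each array correlated with the other 5 of its group at a mean r of 0.958 to 0.979, lowest in control 3 and cortisol 1. The 7 genes were chosen by their differences between cortisol and control on these same arrays, so their differences between groups are a description and were given no test. In limma's fit across all 10734 probes with Benjamini-Hochberg adjustment, 0 probes (0%) passed 0.05 in either direction, the smallest adjusted p was 0.693, and 6.82% of probes had an unadjusted p under 0.05. Mean signal was higher after cortisol for 12 of the 13 member probes, and 46.0% of all tested probes had a difference above 0. For none of the 13 probes did all 6 cortisol arrays lie above all 6 control arrays, which 0.0932% of tested probes did. For 8 of the 13 probes at least 4 cortisol arrays lay above every control, as did 3.91% of tested probes. Because the choice of genes used this contrast, these shares stand side by side without a reading.

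**Figure D1:**
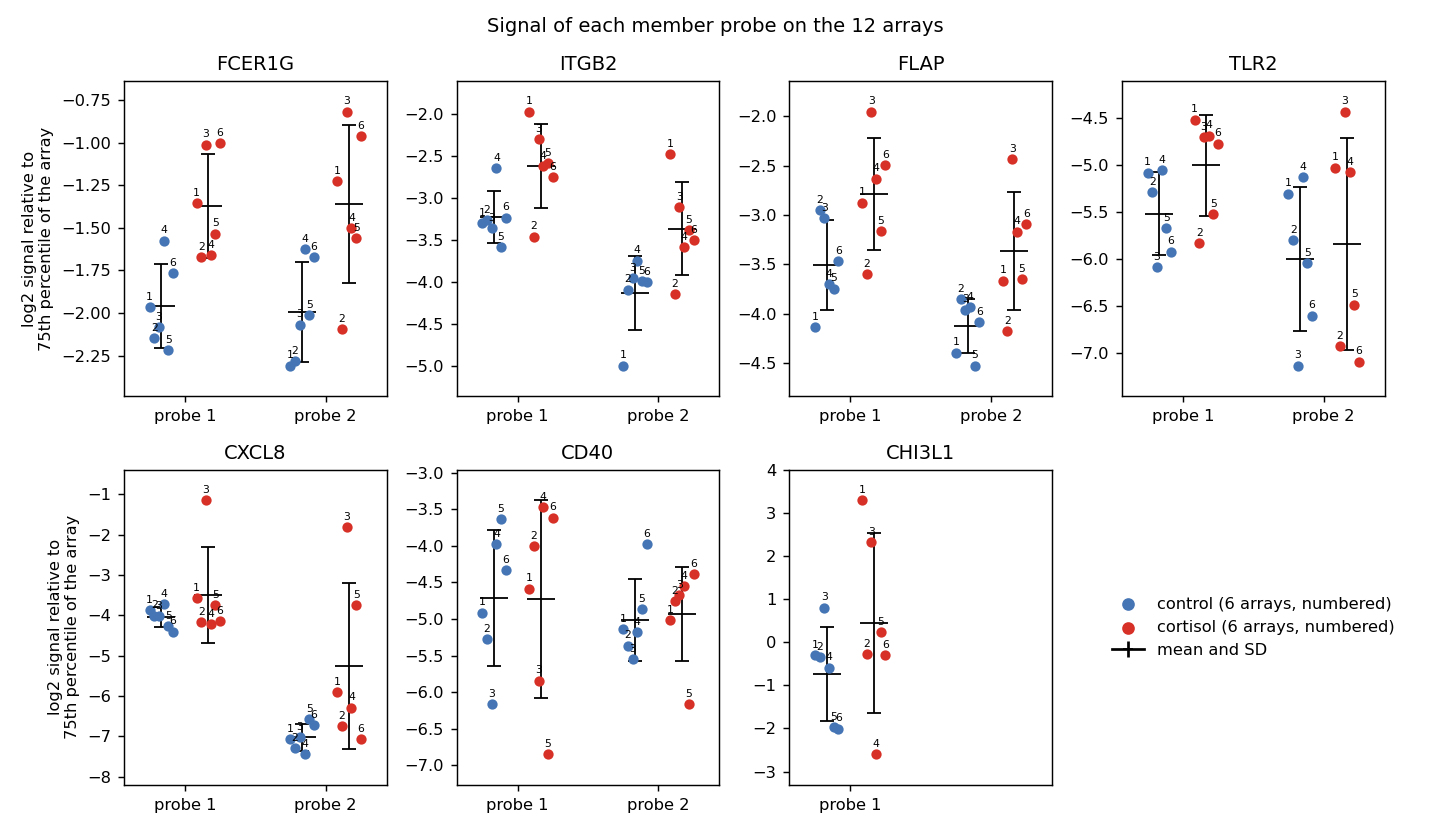
Log2 signal of each probe of the 7 genes relative to the 75th percentile of its array, with 6 control arrays (blue) and 6 cortisol arrays (red) numbered by replicate and bars for the group mean and SD. The groups overlap for every probe; cortisol 3 stands far above its group for CXCL8, and cortisol 1, 3 and 4 spread CHI3L1 over almost 6 log2 units.

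FCER1G and ITGB2, the signalling chain and the integrin chain of white blood cells, were higher after cortisol by about 0.6 to 0.8 log2 units on all 4 of their probes. FCER1G probe 1 ranged from -2.22 to -1.57 with a median of -2.02 on the control arrays, and from -1.67 to -1.004 with a median of -1.44 on the cortisol arrays. The groups overlapped only through control 4, which lay above cortisol 2 and cortisol 4. The group means were -1.96 ± 0.25 (SD, n = 6) and -1.37 ± 0.30 (SD, n = 6), a difference of 0.59 with a 95% interval of 0.22 to 0.95, or 1.5-fold. Probe 2 differed by 0.64 (0.17 to 1.1) with 5 cortisol arrays above every control, and cortisol 2 was the exception.

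ITGB2 pairs with an alpha chain to form the integrins that let leukocytes grip the vessel wall. Its probe 1 ranged from -3.58 to -2.65 with a median of -3.28 on the control arrays, and from -3.46 to -1.97 with a median of -2.60 on the cortisol arrays. Cortisol 1 was the highest array and cortisol 2 the lowest of its group, while control 4 stood apart above the other 5 controls. The means were -3.23 ± 0.31 (SD, n = 6) and -2.61 ± 0.50 (SD, n = 6), which differed by 0.62 (0.12 to 1.11), or 1.53-fold. Probe 2, which starts 46 bases from probe 1 and shares 14 bases with it, differed by 0.76 (0.19 to 1.34). On this probe 5 of 6 cortisol arrays lay above every control. It exceeded background on 5 control arrays and 6 cortisol arrays. Within the 3 sets of 2 control and 2 cortisol arrays that share a slide and a row, ITGB2 probe 1 differed by 0.56, 0.54 and 0.74, and FCER1G probe 1 by 0.54, 0.49 and 0.72.

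FLAP, the 5-lipoxygenase activating protein, showed the same direction. Its probe 1 ranged from -4.14 to -2.95 with a median of -3.58 on the control arrays, and from -3.60 to -1.95 with a median of -2.75 on the cortisol arrays. Cortisol 3 was the highest array, cortisol 2 and cortisol 5 lay within the control range, and control 2 and control 3 lay above both. The means of -3.51 ± 0.45 (SD, n = 6) and -2.79 ± 0.57 (SD, n = 6) differed by 0.72 (0.13 to 1.31), or 1.65-fold. Probe 2 differed by 0.76 (0.22 to 1.30), with 5 cortisol arrays above every control. The difference of probe 1 varied between the sets, at 0.31 in the set on slide 1 and 1.08 and 0.78 in those on slide 2. For probe 2 it was 0.20 on slide 1 alone. As the sets hold different arrays, effects of place and of single arrays cannot be told apart.

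No single array moved the differences of the FCER1G, ITGB2 or FLAP probes by more than 1.5 times when left out. Leaving out control 3 and cortisol 3 together gave 0.49 for FCER1G probe 1, 0.53 for ITGB2 probe 1 and 0.65 for FLAP probe 1. A different treatment of background did move them. With normexp background correction, which models the background and here adds an offset of 50 intensity units, the difference was 0.27 and 0.35 for the FCER1G probes, 0.20 and 0.08 for ITGB2, and 0.18 and 0.12 for FLAP. All 6 kept their sign. The median array intensity of these probes was between 21.9 and 89.9 units, so the offset is of the size of the signal itself.

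The sensing receptor TLR2 was close to the detection limit. Probe 1 is printed in 5 spots per array, of which 21 of 60 were well above background over the 12 arrays, 8 of 30 on control and 13 of 30 on cortisol arrays. Because any spot was enough, the probe counted as above background on 7 arrays, though most of its spots were so on only 4. Its signal ranged from -6.08 to -5.05 with a median of -5.48 on the control arrays and from -5.83 to -4.51 with a median of -4.73 on the cortisol arrays. Cortisol 1, 3, 4 and 6 lay above every control, and cortisol 2 and 5 lay in the control range. The means of -5.51 ± 0.44 (SD, n = 6) and -5.00 ± 0.54 (SD, n = 6) differed by 0.51, with an interval of -0.05 to 1.08 that includes 0. The SD between the 5 spots of an array was 0.258 to 0.868, as large as the difference on some arrays. With normexp the difference was -0.10, with the opposite sign, and in the set on slide 1 it was 0.01. Probe 2, well above background on 3 arrays, differed by 0.16 (-0.90 to 1.23), and by -0.12 without cortisol 3, -0.07 without control 3 and -0.35 without both. Over all arrays left out in turn it lay between -0.12 and 0.41, so its sign is not settled.

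CD40, the T-cell help receptor, had nearly the same mean in both groups and a wide spread in each. Its probe 1 ranged from -6.16 to -3.63 on the control arrays with a median of -4.62, and from -6.85 to -3.46 on the cortisol arrays with a median of -4.29. Both groups held arrays across nearly the whole range, with control 3, cortisol 3 and cortisol 5 the lowest. On each of those lowest arrays the probe was not well above background. Only 7 of the 12 arrays met that mark for probe 1, 4 from the cortisol group and 3 from the controls. The spread of this probe, its interval and its changes of sign therefore rest partly on signals near background. The difference was -0.01 (-1.27 to 1.24), so a change of more than 1 log2 unit either way lies within its interval. The sign turned in 10 of 25 alternatives, including the removal of control 4 (0.14), control 5 (0.20), control 6 (0.07), cortisol 3 (0.21) or cortisol 5 (0.41). In the 3 sets it was 0.80, 0.42 and -1.25. Removal of control 3 gave -0.30, of cortisol 4 -0.27 and of cortisol 6 -0.24. Probe 2, above background on 4 arrays, differed by 0.08 (-0.61 to 0.77), by 0.33 without cortisol 5, 0.29 without control 6, and -0.02 without control 3 or without cortisol 6.

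CXCL8, the neutrophil chemokine, differed between groups mainly through 1 array. Probe 1 ranged from -4.41 to -3.73 with a median of -4.01 on the control arrays and from -4.22 to -1.15 with a median of -3.95 on the cortisol arrays. Cortisol 3, at -1.15, lay far above every other array, while cortisol 2, 4, 5 and 6 fell within the control range. The means of -4.05 ± 0.25 (SD, n = 6) and -3.50 ± 1.18 (SD, n = 6) differed by 0.55 (-0.39 to 1.48). Without cortisol 3 the difference was 0.08. Probe 2, which shares 20 bases with probe 1, exceeded background on 0 control arrays and 2 cortisol arrays, cortisol 3 at -1.82 and cortisol 5 at -3.75. Its control level is therefore only a bound. The lowest signal counted as above background averaged -5.52 over the control arrays, and the measured cortisol mean, -5.26, lay 1.20-fold above it. As that mean also holds cortisol arrays not above background, 1.20-fold is not a lower bound. It rests on cortisol 3, since without that array the cortisol mean was -5.95, below the same floor, and no fold can be given. The measured control mean was -7.02. Probe 2 gave a difference of 1.76 from the measured values, 1.07 without cortisol 3 and 0.13 with normexp.

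CHI3L1 had the widest spread of the 7 genes and was well above background on all 12 arrays. It ranged from -2.01 to 0.80 with a median of -0.46 on the control arrays and from -2.60 to 3.29 with a median of -0.02 on the cortisol arrays. Cortisol 1 (3.29) and cortisol 3 (2.31) lay above every control, cortisol 4 (-2.60) below every control, and cortisol 2, 5 and 6 among them. The means were -0.74 ± 1.08 (SD, n = 6) and 0.44 ± 2.10 (SD, n = 6), and the difference of 1.18 had an interval of -0.61 to 2.97. It was 0.61 without cortisol 1 and 1.79 without cortisol 4, and in the 3 sets 1.83, -0.25 and 1.96. Its normexp value, 0.99, was close to that of the processed signal. Its median array intensity was 260.0 units, well over the offset.

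**Figure D2:**
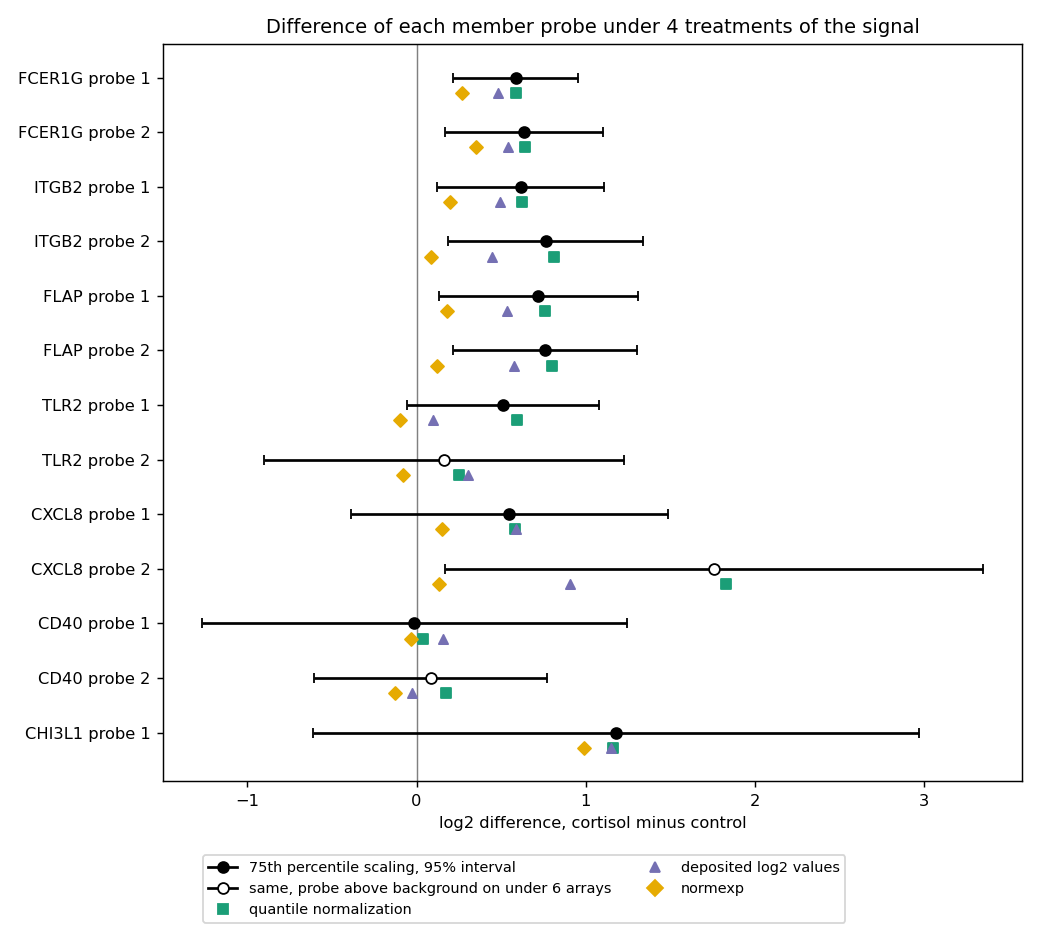
Log2 difference of each probe, cortisol minus control, with its 95% interval (black; open for the 3 probes above background on fewer than 6 arrays) and, below it, the difference with quantile normalization, with the deposited log2 values and with normexp. The 6 probes of FCER1G, ITGB2 and FLAP stay above 0 in all 4 treatments, with normexp nearest 0, and TLR2 falls below 0 with normexp.

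Across treatments of the signal, 8 of the 13 probes kept their sign in every alternative run, the differences within each slide row included: those of FCER1G, ITGB2, FLAP and CXCL8. In this balanced design the blocks cannot change a difference, and neither can the filters on dim probes. Those runs repeat the main value, 0.59 for FCER1G probe 1, and add nothing to the agreement in sign. CHI3L1 turned only within 1 slide row, at -0.25. The deposited log2 values, whose array medians nearly coincide, gave 0.48 for FCER1G probe 1, 0.50 for ITGB2 probe 1, 0.53 for FLAP probe 1, 0.10 for TLR2 probe 1 and 1.15 for CHI3L1. Quantile normalization of the processed signal gave 0.59, 0.63, 0.76, 0.60 and 1.16 for the same probes.

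How the members varied from array to array within a group was not used to choose them, and their joint variation was tested. That variation may be technical as well as biological, and slide and row were not removed from it. For each gene the deviations from the group mean were correlated over the 12 arrays, with 1 probe per gene, which gave 21 pairs of genes. The probes of TLR2 and CD40 were well above background on only 7 arrays each. Their pairs therefore rest partly on signals near background. A permutation test with 100000 resamples within groups, two-sided, with Benjamini-Hochberg adjustment over the 21 pairs, found 0 pairs past 0.05 by Pearson's r and 1 pair at an unadjusted p under 0.05. That pair was ITGB2 and TLR2, with r = 0.69 (permutation p = 0.0181, adjusted p = 0.380) and rho = 0.60 (permutation p = 0.0549). Without the 2 arrays farthest from the median, cortisol 1 and cortisol 2, r was 0.42. By Spearman's rho 1 pair passed, CXCL8 and CHI3L1, with rho = 0.75 (permutation p = 0.00216, adjusted p = 0.0454). Pearson's r of that pair was 0.58 (permutation p = 0.170, adjusted p = 0.526), and 0.50 without cortisol 3 and cortisol 4. With normexp its r was 0.32 (permutation test, adjusted p = 0.558).

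The Fc receptor chain and the integrin chain, FCER1G and ITGB2, had r = 0.57 over the 12 arrays (permutation p = 0.0768, adjusted p = 0.526) and rho = 0.52 (permutation p = 0.111). Their r was 0.88 within the control group and 0.42 within the cortisol group, and that difference was not tested. CD40 and CHI3L1 ran in opposite directions, with r = -0.55 (permutation p = 0.112, adjusted p = 0.526) and rho = -0.67 (permutation p = 0.0334), which did not pass. The arrays lowest for CD40, control 3 and cortisol 5 among them, were not well above background for it. The 15 pairs without CD40 all had an r above 0, from 0.20 to 0.69, whereas 4 of the 6 pairs with CD40 were below 0, and 51.4% of the named gene pairs were above 0. These signs depended on the treatment of background: with normexp 1 of the 6 CD40 pairs was below 0, and TLR2 and CHI3L1 had r = -0.32. They also depended on single arrays, since without cortisol 2 ITGB2 and FLAP had r = -0.04 and FLAP and TLR2 r = -0.06, and without cortisol 3 FLAP and CXCL8 had r = -0.12. An r of at least 0.6 was reached by 1 of 21 member pairs, and by 4.98% of all pairs of tested probes. The median r was 0.33 over the member pairs and 0.01 over the 259560 pairs of named measured genes, and pairs in either set share arrays and are not independent. With normexp 3 pairs passed by Pearson's r, none of which passed with the processed signal: TLR2 and CXCL8 (r = 0.60), TLR2 and CD40 (r = 0.82), and CD40 and CHI3L1 (r = -0.63).

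**Figure D3:**
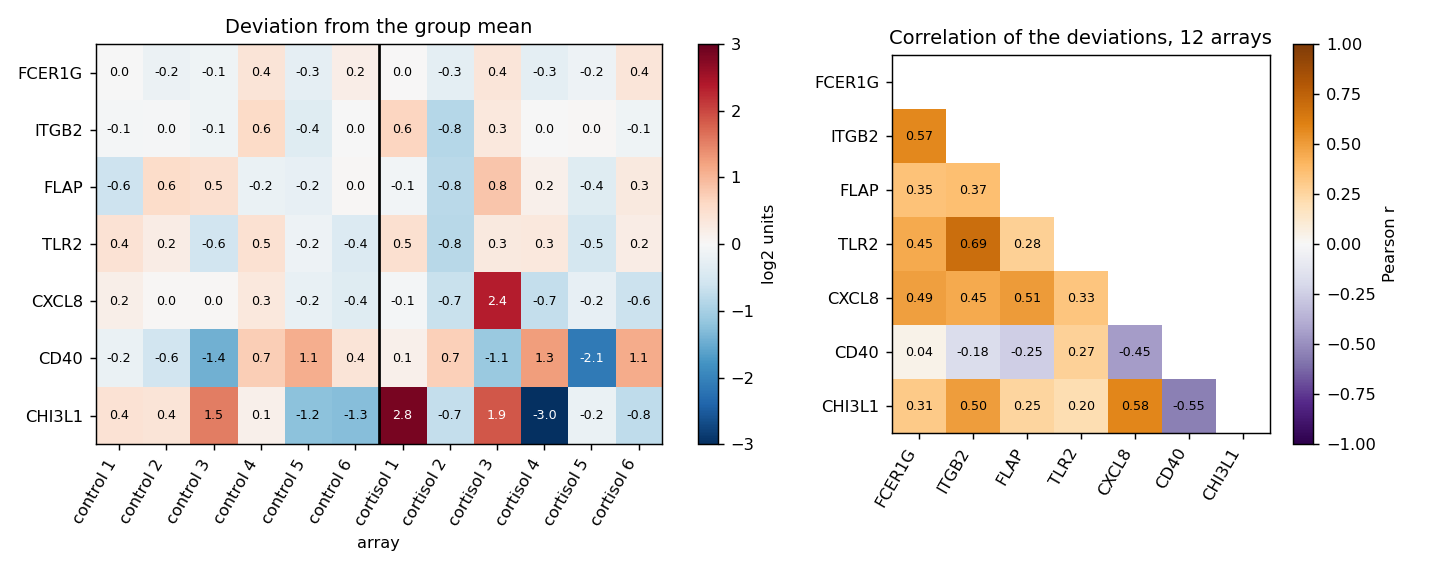
Left, deviation of each of the 7 genes from its group mean on the 12 arrays, in log2 units (red above, blue below). Right, Pearson correlation of these deviations for the 21 pairs of genes. Cortisol 3 is above its group mean for 6 of 7 genes, and CD40 has an r of -0.45 with CXCL8 and -0.55 with CHI3L1. CD40 and TLR2 were each well above background on only 7 of the 12 arrays.

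Some arrays were high or low for several members at once. Cortisol 3 lay above its group mean for 6 of the 7 genes, all except CD40, and control 4 for 6 of 7 in its own group. Control 4 was the highest control for 4 genes. Cortisol 2 was the lowest cortisol array for 4 genes, FCER1G, ITGB2, FLAP and TLR2. The 2 probes of a gene moved together over the 12 arrays, with r of deviations from 0.71 for CD40 and 0.74 for ITGB2 to 0.89 for FLAP.

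Among the 721 other named measured genes, those whose deviations followed a member most closely over the 12 arrays are given as a description. The nearest genes are named for each member, 3 for all but ITGB2, with r first over all arrays and then without the 2 arrays farthest from the member's median. For FLAP they were OLA-I, a sheep MHC class I gene (0.85, then 0.76), ARNT, a partner of the dioxin receptor (0.80, then 0.75), and CD86, a co-stimulatory ligand of antigen-presenting cells (0.80, then 0.60). For CXCL8 they were ribosomal protein S12 (0.92, then 0.59), serum amyloid A3.2, an acute-phase protein (0.89, then 0.63), and RPS26, another ribosomal protein (0.87, then 0.57), all lower once cortisol 3 and cortisol 4 were left out. CD40 went with the chemokine receptor CCR10 (0.96, then 0.94), the metabolic enzyme IDH1 (0.90, then 0.88) and the interferon-induced MX1 (0.89, then 0.92). The CD40 and TLR2 probes were each well above background on only 7 of the 12 arrays. CHI3L1 went with protein disulfide isomerase A4 (0.93, then 0.93), the bacterial sensor NOD2 (0.82, then 0.77) and the muscle ubiquitin ligase FBXO32 (0.81, then 0.73). ITGB2 was nearest to the probe the array names NFKB (0.76, then 0.42) and the glucose transporter SLC2A2 (0.75, then 0.67). For TLR2 they were SLC2A2 (0.86, then 0.71), the probe named ANG-1 (0.77, then 0.60) and EP4C, a prostaglandin receptor form (0.75, then 0.79). FCER1G went with SERPINA1, a protease inhibitor (0.69, then 0.55), CALCA, which encodes calcitonin (0.69, then 0.57), and CTNNBL1 (0.67, then 0.40). These are mixed in kind, and nothing is read from them about shared function.

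The rest of the inflammatory pathways was read from 10 lists with 258 genes in all, of which 91 are on the array by name. Of these, 52 were measured and 39 were not well above background on enough arrays, 23 of them on none of the 12. Mean signal was higher after cortisol for 33 and lower for 19 of the 52, with 0 past limma's adjusted p of 0.05, against 0% of all tested probes. With normexp the split was 17 higher and 35 lower, or 32.7% higher, where 34.2% of all tested probes were higher. The median difference of the 52 was 0.06, and that of all tested probes -0.02. For none of the 52 did the groups stand entirely apart.

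The known partners of the members are given beside them. Among adhesion genes, the integrin alpha chain ITGAL, which pairs with ITGB2, differed by -0.40 (-1.43 to 0.64), and the ITGB2 ligand ICAM1 by 0.34 (-0.29 to 0.96). ITGAM, another alpha chain that pairs with ITGB2, was not well above background on any array. Among the Fc receptor genes, the alpha chain FCER1A, partner of FCER1G, differed by 0.12 (-0.43 to 0.66), the signalling chain CD247 by -0.01 and the neonatal Fc receptor FCGRT by 0.40 (-0.04 to 0.84). In the prostaglandin branch beside FLAP, PTGS1 differed by -0.14 and PTGS2 by 0.39 (-0.93 to 1.70), with 2 of 5 measured genes higher.

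In the Toll-like receptor group, 7 of 8 measured genes had a higher mean after cortisol, with a median of 0.11, but only 2 of 8 with normexp. TLR3 differed by 0.30 (-0.13 to 0.73), the co-receptor CD14 by 0.27 (-0.26 to 0.79) and the inhibitor NFKBIA by 0.17 (-0.31 to 0.64). TLR1, TLR8 and TLR10 were not well above background on any array. Of the chemokine group, CXCL1, a neutrophil attractant related to CXCL8, differed by -0.06 (-0.41 to 0.29), and the receptor CXCR4 by -0.40 (-1.25 to 0.44). The CD40 ligand CD40LG and TNF were not well above background on any array. CD80 and CD86 differed by 0.40 (-0.57 to 1.36) and 0.50 (-0.27 to 1.27). None of these intervals excludes 0.

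Of the 10 lists, macrophage and granulocyte effectors had the median nearest to that of the members, 0.57, with 4 of 5 measured genes higher and 1 lower, and 4 of 5 higher with normexp too. CYBB, the catalytic chain of the phagocyte oxidase, differed by 0.61 (0.16 to 1.06) and 5 of 6 cortisol arrays lay above every control. CTSS, a lysosomal protease of antigen-presenting cells, differed by 0.57 (0.08 to 1.06). CYBA differed by 0.08 and NOS2 by -0.13. None of the 5 passed limma's adjusted p of 0.05. In antigen presentation 5 of 7 were higher with a median of 0.13, and 4 of 7 with normexp, and the MHC class I probe of OLA-I, one of a near-identical family whose members cannot be told apart, differed by 0.15 (-0.46 to 0.76). Of all 15 tested MHC class I probes, 11 were higher and 4 lower, from -0.73 to 2.01 with a median of 0.06. Of 10 measured interleukin, interferon and growth factor genes 7 were higher, and 3 with normexp, while IL6 was above background on 1 array and IL10 on none.

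**Figure D4:**
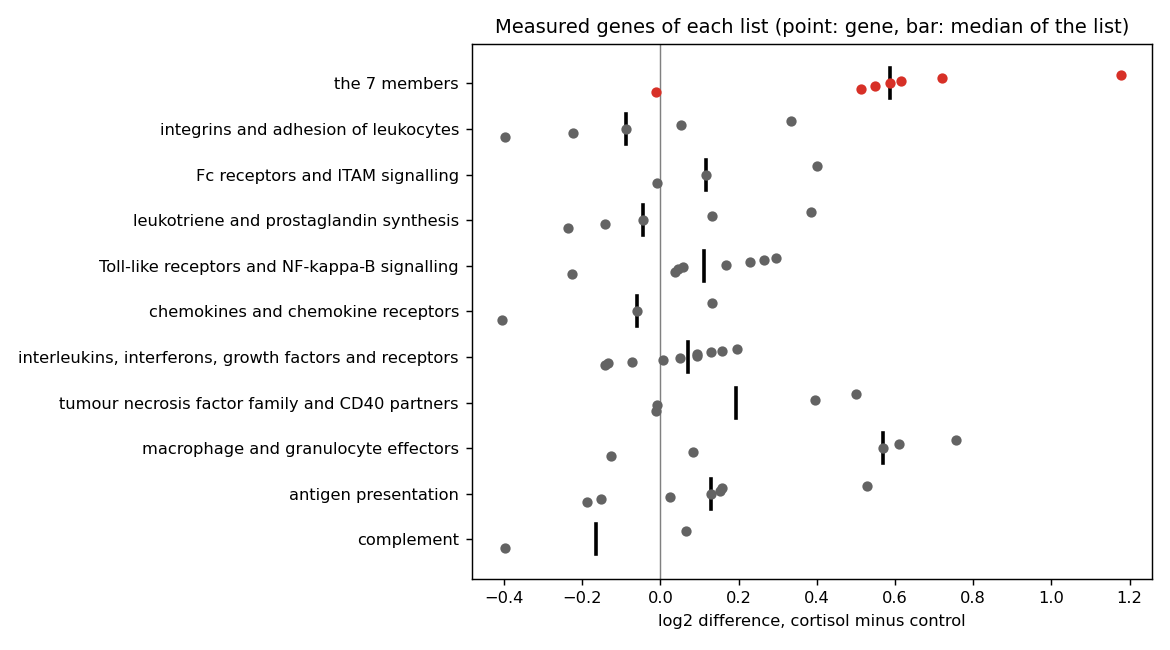
Log2 difference, cortisol minus control, of each measured gene of the 7 members (red) and of 10 inflammation lists (grey), with a bar at the median of each list. Most listed genes lie within 0.4 log2 units of 0, and the macrophage and granulocyte list has its median at 0.57.

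The array offers little to count leukocytes by. No pan-leukocyte marker of the list used, such as PTPRC, is on it by name, and the T cell markers CD3D, CD3E, CD4, CD5 and LCK were not well above background on enough arrays to be measured. TRAC, a T-cell receptor constant chain, was the 1 measured gene of that list, above background on all 12 arrays, and differed by 0.35 (-0.36 to 1.06). Over the 5 tested probes described as T-cell receptor, 2 were higher and 3 lower, from -0.36 to 0.35 with a median of -0.02. Of the monocyte and macrophage markers CD14 differed by 0.27 and LGMN by -0.32. Their summed signal, as a ratio to the 75th percentile, was 4.34 to 6.26 on control and 2.68 to 7.14 on cortisol arrays, so it overlapped throughout. That sum is nearly all LGMN, whose control mean was 2.33 log2 units, against -3.33 for CD14. IGHM, the heavy chain of immunoglobulin M, exceeded background on 1 control array and 6 cortisol arrays and its measured values differed by 1.54 (0.72 to 2.36). As 5 control arrays were not well above background, the control mean is mostly a floor, and with each control value raised, where lower, to the lowest signal counted as above background on its array the difference was 1.30. The gene did not pass limma's adjusted p of 0.05. Of all 12 tested probes described as immunoglobulin, 5 were higher and 7 lower, from -0.92 to 1.54 with a median of -0.05.

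Markers of other tissue components moved beside the members. Red cell markers were 2 higher and 2 lower of 4, with a summed signal of 5.99 to 36.9 on control and 2.40 to 51.1 on cortisol arrays. The fetal haemoglobin chain HBG ranged over several log2 units in both groups. Fibroblast and matrix markers were higher for 5 of 7 and endothelial markers for 1 of 4. Liver markers were lower for 6 of 6, with a summed signal of 0.87 to 148 on control and 0.83 to 3.63 on cortisol arrays. The muscle markers MYOD1, MYF5 and MB were lower for 3 of 3, and their sum was 71.5 to 132 on control and 9.24 to 64.6 on cortisol arrays. The lack of overlap in that sum is that of MB, myoglobin, which differed by -1.46 (-2.49 to -0.43). MYOD1 differed by -0.52 (-1.47 to 0.43), with 2 cortisol arrays above every control and 3 below. MYF5 differed by -0.60 (-1.03 to -0.18), with 5 cortisol arrays below every control. No gene of these lists passed limma's adjusted p of 0.05. Their part in the members' differences was not tested.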

How the data were processed

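RNA of 12 fetal biceps femoris samples, 6 per group, was hybridised to 1-colour Agilent arrays, and per the labels 500 ng of RNA was labelled with Cy3. Per the submitters' processing notes, Agilent Feature Extraction 10.1.1.1 read the scans. The deposited scanner files give each spot's processed intensity, from which background and spatial trend were removed per the file headers, with no scaling from array to array. Other values in them, per the file headers, are flags such as well above background. The deposited series table holds log2 values whose array medians lie between 5.976 and 5.993, ordered within an array as median signal minus background. The sources used here do not name the tool behind the authors' log2 values.

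Spots of a probe were averaged on the log2 scale without outlier-flagged spots, and the 75th percentile of each array over non-control probes was subtracted. Probes well above background on at least 6 arrays were tested with limma 3.58.1 in R 4.3.3, two-sided, with Benjamini-Hochberg adjustment over 10734 probes. In simulated data for this comparison, limma called 65 of 100 at a log2 shift of 1 and 95 of 100 at 2, with 6 false calls. Both shifts were upward, in the same simulated arrays, and were adjusted together. The 65 calls therefore need not hold for shifts of 1 alone. Each probe was drawn independently with its own mean and SD, without effects shared over an array or slide. No shift under 1 was simulated. Intervals are at 95%, and the number of arrays limits the precision. Correlations used Python 3.11.15, numpy 2.4.6 and scipy 1.17.1.

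Names came from the array's annotation and a sheep RefSeq table. A further 35 probes were named by hand from the array's descriptions. Where a gene has several probes, the probe with the highest mean signal stands for it, as probe 1. The members, gene lists and tests were chosen with earlier results of these data known. The genes named are all probes of the members, up to 4 measured genes of highest mean signal from each pathway list, the top 3 of each marker list with set defining markers, and the 3 genes most correlated with each member, of which 1 is not reported here. ITGAM, TLR1, TLR8, TLR10, CD40LG, TNF, IL6 and IL10 were named outside that rule, to say that they were not measured. Alternatives covered background correction, scaling, filters, blocks, single slides, array weights and arrays left out. Differences within each slide row were added after the data were seen.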

Additional observations from a re-analysis of the deposited data

Results flagged for a closer look

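In 142 groups of 6 arrays, covering the member probes and the named list genes, 13 held an array that lay far from the other 5 relative to the group's range. Chance passes about 1 in 20 groups under this criterion. Among the members, cortisol 3 was high for CXCL8 probe 1 at -1.149, where the nearest other array was at -3.567. Cortisol 5 was low for CD40 probe 2 at -6.165. Control 4 was high for ITGB2 probe 1 at -2.649, and control 1 was low for ITGB2 probe 2 at -5.002, so the probes of ITGB2 did not single out the same array.

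Among the other inflammation genes, ITGAL was low on control 3 at -5.827, the prostaglandin synthase PTGS2 was high on control 5 at -0.839, CD14 was high on control 1 at -2.498, CD1D was low on control 3 at -1.083 and OLA-I was low on control 1 at 5.748. On cortisol 3, the array highest for CXCL8, complement C3 was also far above its group at 1.898, as was IGHM at -2.394. Of the adipocyte markers, LPL was high at 2.82 and PPARG low at -0.315, both on control 3.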

How the results depend on the processing

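The count of probes past limma's adjusted p of 0.05 was 0 in 25 of 26 alternatives, with 494 to 1080 probes at an unadjusted p under 0.05. Within the 3 slide rows, added after the data were seen, 298 to 985 probes were at that p. On slide 1 alone, which holds a single row of this kind, it was 1, the non-member probe the array names EE829208 (adjusted p = 0.0194, log2 difference -7.30 there and -1.87 over all arrays). The count was 0 without each array in turn, 0 with slide or slide row as a block, and 0 with the replicate number as a block. Same-numbered arrays share a slide and a row, and deviated together at r over 0.1 in 4 of 6 pairs (-0.114 to 0.247). Of the 12 arrays, 6 correlated best with their own number. Whether the numbers pair the arrays was not tested. Member pairs correlated past the adjusted threshold numbered 3 with normexp (adjusted p = 0.0256, 0.0416 and 0.0489), and 0 with quantile normalization, the deposited values and each array left out. Measured list genes with a higher mean numbered 33, or 17 with normexp, which lowered the median difference of all tested probes to -0.07. The cause of these shifts was not tested. Signals near background, as for TLR2, CD40 and CXCL8 probe 2, limit what their differences can show.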
